A study of Mus musculus with 16 samples.

Results

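Myostatin, activin receptor and IGF1 signalling was followed through 9 genes of muscle mass control: the ligands Mstn and Gdf11, the inhibitor Fst, the receptors Acvr2a and Acvr2b, the transducer Smad3, and Igf1, Igf1r and Igfbp5. The genes were taken by symbol, and all 9 were among the 19108 gene symbols listed for each library. The samples were quadriceps muscles of 16 C57BL/6 mice aged 6 months. They came from 4 transgenic (Tg) females and 4 Tg males that carried ANT1(Tg)/+, an additional Ant1 gene, and from 4 wild-type (WT) females and 4 WT males without it. Ant1, now named Slc25a4, encodes the muscle form of the mitochondrial adenine nucleotide carrier, which moves ATP out of the matrix and ADP in. The sources used here do not give the promoter that drives the transgene or the number of founder lines. Mice ate a chow diet, and controls were littermates where possible, per the labels.

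Myostatin is a secreted protein of the TGF-beta family, made mainly by muscle fibres, and is known for restraining muscle growth. Myostatin, GDF11 and the activins bind the type II receptors ACVR2A and ACVR2B, which with a type I receptor phosphorylate SMAD2 and SMAD3, and follistatin captures these ligands outside the cell. IGF1 acts through its receptor and the kinase AKT to promote protein synthesis and to hold back the FoxO factors, which switch on the muscle ubiquitin ligases, and IGFBP5 is a secreted protein that binds IGF1.

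Of the 9 genes, 3 differed between the genotypes when the sexes were averaged. Smad3 and Gdf11 fell and Igf1r rose in Tg muscle, while Mstn, Fst, Acvr2a, Acvr2b, Igf1 and Igfbp5 did not pass the test. In bulk RNA, fewer cells of a type and less RNA per cell cannot be told apart. A gene is called here when its Benjamini-Hochberg adjusted p, over all 13666 genes tested, is under 0.05. The 3 calls make 33.3% of the 9 genes, and 30.4% of all tested genes were called in the same comparison, so the share of calls in this group was near the background. Both genes that fell and the 1 that rose stand against backgrounds of 13.3% lower and 17.2% higher. All 9 genes passed the filter on low counts. The median log2 fold change of the 9 genes was -0.08, against -0.01 over all tested genes, and their median absolute log2 fold change was 0.27, against 0.19 over all tested genes. Tg females against WT females gave 2 calls, Igf1r and Smad3, where 17.7% of all tested genes were called (10.1% higher and 7.57% lower). Tg males against WT males gave 3 calls, Igf1r, Smad3 and Gdf11, where 18.2% of all tested genes were called (9.85% higher and 8.39% lower).

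**Figure D1:**
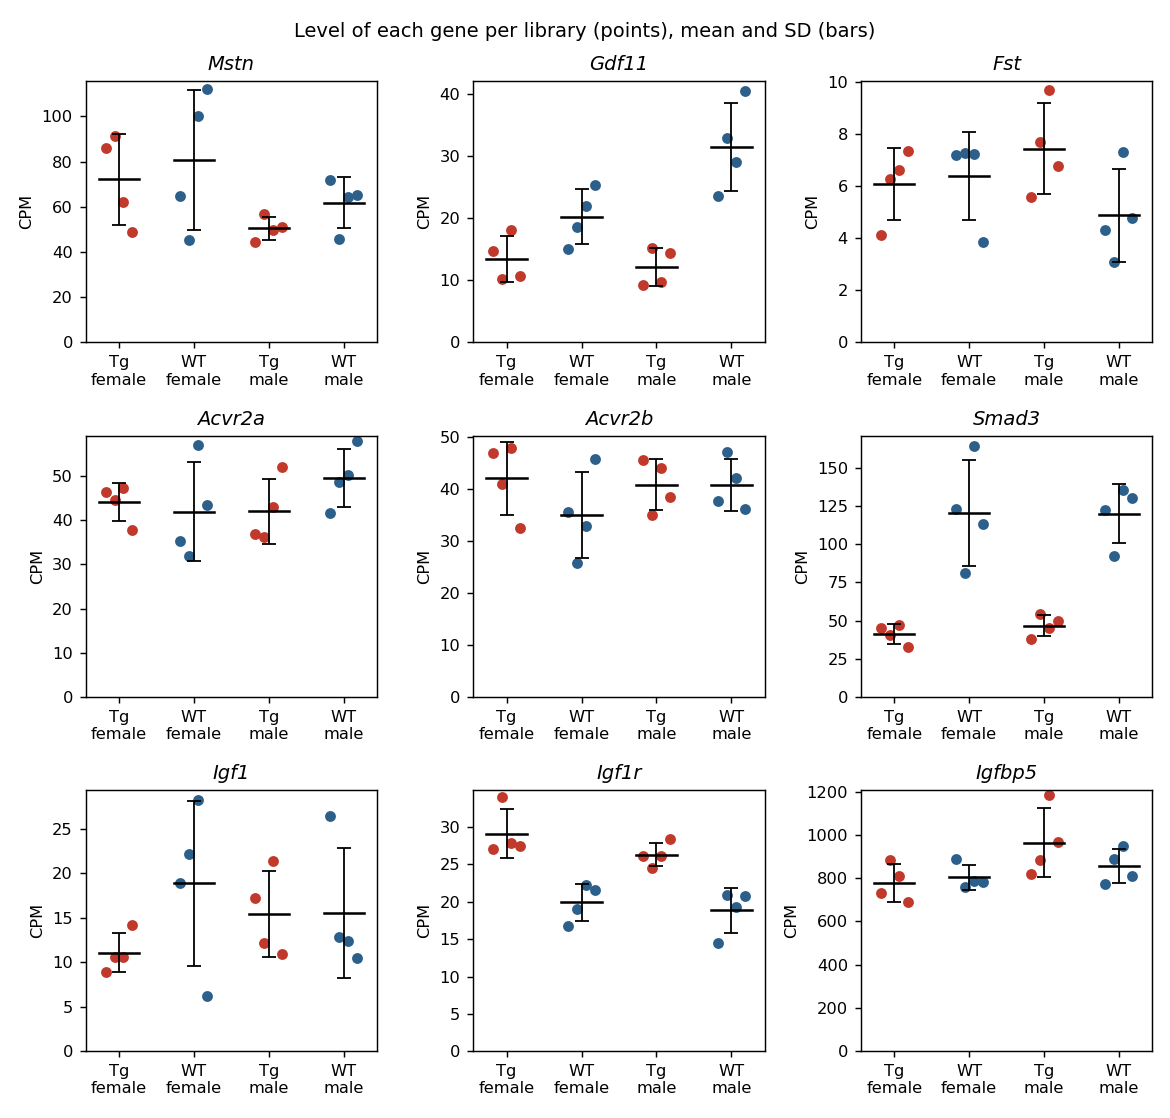
Level of each of the 9 genes as counts-per-million (CPM) in every library (points), with the group mean and SD (bars), for Tg females, WT females, Tg males and WT males (n = 4 each). All 8 Tg libraries lie below all WT libraries for Smad3 and above them for Igf1r, and Gdf11 separates fully in males alone.

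Library totals were 17435895 to 30680324 estimated counts, and a count of 0 in a library would allow up to 0.101 to 0.165 CPM. Each of the 9 genes was above this limit in every library, the lowest single value being 3.10 CPM for Fst. Slc25a4 averaged 9755 ± 876 CPM in Tg muscle and 3399 ± 408 CPM in WT muscle (SD, n = 8 each), and every Tg library exceeded every WT library. The summed level of 7 muscle fibre markers was 130739 to 187154 CPM in Tg libraries and 139453 to 219828 CPM in WT libraries, with 3 of the 7 called (Myh4 and Tnnt3 lower, Myh1 higher) and none at 0. Their mean log2 CPM, the measure used in the correlations below, went the other way. It was 13.64 to 13.90 in Tg libraries and 13.01 to 13.70 in WT libraries. Fat markers were uneven. The mean log2 CPM of 10 adipocyte markers was 6.30 to 7.22 in 4 libraries (Tg female 4, WT female 1, WT female 2 and WT male 1) and at most 4.99 in the others. The summed level of these markers was 174 to 1655 CPM in Tg libraries and 173 to 3413 CPM in WT libraries. By edgeR 0 of the 10 were called, with 0 at an unadjusted p under 0.05, as by DESeq2 and limma-voom, and only Ucp1 had a count of 0, in 7 libraries. Their median log2 fold change, Tg over WT, was -0.87, against -0.55 for macrophage and leukocyte markers and -0.31 for fibroblast markers. The median was 0.12 for endothelial markers and -0.29 to -0.02 for the other marker lists. Markers of satellite cells summed to 30.1 to 43.5 CPM in Tg libraries and 31.9 to 43.4 CPM in WT libraries, with 2 of 6 called: Chodl was lower (log2 fold change -1.07, adjusted p = 0.000158) and Cdh15 higher (0.34, adjusted p = 0.0182). Endothelial markers summed to 248 to 312 CPM in Tg libraries and 210 to 312 CPM in WT libraries, with 0 of 7 called by edgeR, DESeq2 or limma-voom and 1 at an unadjusted p under 0.05. With those 4 libraries left out, the calls numbered 0 for macrophage, 4 for muscle fibre, 1 for satellite cell, 3 for endothelial, 1 for smooth muscle and 1 for Schwann cell and tendon markers. The share of all tested genes called ran from 20.6% to 34.7% over the alternative settings.

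Levels between genes can be compared roughly per kilobase of exon, using the merged exons of all transcripts of each gene in GENCODE M21. The transcripts present in this muscle and the annotation used for counting were not known, so the order below is approximate. On that scale Igfbp5 led in Tg muscle, at 145 ± 25.7 CPM per kilobase, and in WT muscle, at 138 ± 11.6 CPM per kilobase (SD, n = 8 each). Mstn followed with 22.7 ± 6.58 CPM per kilobase in Tg muscle and 26.3 ± 8.80 CPM per kilobase in WT muscle. Smad3 had 7.93 ± 1.24 CPM per kilobase in Tg muscle and 21.7 ± 4.67 CPM per kilobase in WT muscle. In WT muscle its spread therefore overlapped that of Mstn, and in Tg muscle it lay next to Acvr2a, at 7.57 ± 1.00 CPM per kilobase, and under Acvr2b, at 10.5 ± 1.45 CPM per kilobase. Gdf11 came sixth in Tg muscle with 3.15 ± 0.79 CPM per kilobase and sixth in WT muscle with 6.38 ± 2.01 CPM per kilobase. Igf1r, Fst and Igf1 closed the order at 1.34 to 1.65 CPM per kilobase in Tg muscle and 1.15 to 1.74 CPM per kilobase in WT muscle, within one another's spread.

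Mstn, the gene of myostatin, lies on chromosome 1 from 53061640 to 53068079 (plus strand, ENSMUSG00000026100.6, build mm10). It had 86.1, 91.5, 62.1 and 49.1 CPM in Tg females, against 64.6, 45.3, 100.2 and 112 CPM in WT females. In males it had 44.4, 56.9, 49.6 and 51.3 CPM in Tg mice, against 72.1, 45.9, 64.4 and 65.3 CPM in WT mice. The genotypes overlapped in both sexes, and the range within WT females alone was wider than any difference between group means. The averaged log2 fold change was -0.23 (SE 0.18, 95% interval -0.61 to 0.16, edgeR adjusted p = 0.379). The interval spans 0 and leaves room for a change in either direction. Within groups, Mstn gave r = -0.77 with smooth muscle and pericyte markers (permutation p = 0.0128, adjusted p = 0.139). With endothelial markers r was -0.73 (permutation p = 0.0344, adjusted p = 0.165). With Schwann cell and tendon markers r was -0.64 (permutation p = 0.0254, adjusted p = 0.139), and none of these passed after adjustment. Without the 2 libraries farthest from the median marker level, r was -0.65 for smooth muscle and pericyte markers. Likewise, r was -0.51 for endothelial markers and -0.38 for Schwann cell and tendon markers. The male minus female log2 difference of Mstn was -0.51 (SE 0.26, adjusted p = 0.563) in Tg mice and -0.38 (SE 0.26, adjusted p = 0.523) in WT mice, neither called. The WT difference was called, at -0.84 (adjusted p = 0.0230), once the 4 libraries rich in adipocyte markers were left out, which kept 2 WT females and 3 WT males.

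Gdf11 encodes growth differentiation factor 11, the closest relative of myostatin, and lies on chromosome 10 from 128882295 to 128891718 (minus strand, ENSMUSG00000025352.6). It had 14.7, 10.2, 18.1 and 10.7 CPM in Tg females, against 15.03, 18.6, 22.0 and 25.4 CPM in WT females. Tg males had 9.33, 15.2, 9.80 and 14.4 CPM, against 23.7, 32.9, 29.0 and 40.6 CPM in WT males. Every Tg male lay below every WT male, 3 of 4 Tg females lay below every WT female, and 6 of 8 Tg libraries lay below all WT libraries. Among all tested genes, 11.7% separated fully in this direction in males. Over all libraries 2.69% separated fully, which Gdf11 did not. Averaged over the sexes, Gdf11 fell by 49.4% (log2 fold change -0.98, SE 0.16, 95% interval -1.33 to -0.63, edgeR adjusted p = 0.000324), and 4.24% of tested genes had a larger absolute change.

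The decrease of Gdf11 measured -1.37 on the log2 scale in males (SE 0.23, adjusted p = 0.000747) and -0.59 in females (SE 0.23, adjusted p = 0.0901). The female value was not called in the main fit or in 23 of 26 alternative settings. Over the 26 settings it was -0.79 to -0.46, with an adjusted p of 0.00918 to 0.219. It was called with 1 surrogate variable as a covariate (-0.79, adjusted p = 0.00918) and with the adipocyte marker level as a covariate (-0.71, adjusted p = 0.0131). It was also called without Tg female 3, the Tg library with the highest level (-0.77, adjusted p = 0.0463). The genotype effect was not shown to differ between the sexes: the interaction was -0.79 (SE 0.32, edgeR adjusted p = 0.614). WT males had a mean of 31.5 ± 7.11 CPM and WT females 20.3 ± 4.45 CPM (SD, n = 4 each), a male minus female log2 difference of 0.64 that was not called (adjusted p = 0.161). Tg males averaged 12.2 ± 3.06 CPM and Tg females 13.4 ± 3.71 CPM. Of the 9 genes, 0 were called for the interaction, for the sex difference in WT mice or for that in Tg mice by edgeR, DESeq2 or limma-voom, with 1 gene at an unadjusted p under 0.05 by edgeR in each. Among all tested genes 0.00732% were called for the interaction, 3.67% for sex in WT mice and 0.527% for sex in Tg mice.

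Within groups, Gdf11 was set against the 10 adipocyte markers, and neither correlation passed after adjustment. The deviations of its log2 CPM and of their mean log2 CPM from the group means gave r = -0.65 (permutation p = 0.0166, adjusted p = 0.139) and rho = -0.61 (permutation p = 0.0264, adjusted p = 0.201; 16 libraries), and r = -0.55 without Tg female 4 and WT male 1. Without the 4 libraries rich in these markers the averaged log2 fold change of Gdf11 was -1.13 (adjusted p = 0.000482).

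Fst encodes follistatin, which binds activins and myostatin and keeps them from their receptors, and lies on chromosome 13 from 114452290 to 114458951 (minus strand, ENSMUSG00000021765.9). It had 4.14, 6.27, 6.63 and 7.38 CPM in Tg females, against 7.21, 7.29, 7.26 and 3.86 CPM in WT females. In males it had 5.61, 7.71, 9.72 and 6.78 CPM in Tg mice, against 4.32, 3.10, 7.34 and 4.78 CPM in WT mice. The genotypes overlapped in both sexes. The averaged log2 fold change was 0.27 (SE 0.19, adjusted p = 0.308), with -0.07 (adjusted p = 0.876) in females and 0.61 (SE 0.27, adjusted p = 0.136) in males. Of the alternative settings, the male value was called in the 1 without WT male 3, at 0.87 (adjusted p = 0.0357). The exons of Fst overlap those of the antisense gene Gm47040, which shares 0.86% of the 75-base stretches of Fst transcripts, and the sources used here do not say whether the counting used the strand.

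Fst varied with the fibroblast markers. Within groups, its log2 CPM and the mean log2 CPM of 8 fibroblast markers deviated together from the group means (Pearson r = 0.89, permutation p = 1e-05, adjusted p = 0.00072; Spearman rho = 0.88, permutation p = 6e-05, adjusted p = 0.00432; 16 libraries). The p of 1e-05 is the smallest that the 100000 permutations within groups can give. Without the 2 libraries farthest from the median marker level, Tg female 1 and WT female 4, r was 0.81. The relation with 7 macrophage and leukocyte markers was similar in size (r = 0.84, permutation p = 0.00028, adjusted p = 0.0101; rho = 0.84, permutation p = 0.00041, adjusted p = 0.0148; r = 0.77 without Tg male 3 and WT female 4). These were the only relations called by both coefficients among 72 tested, which set the 9 genes against 8 marker lists. The summed fibroblast marker level was 876 to 2484 CPM in Tg libraries and 1434 to 2945 CPM in WT libraries, with 0 of 8 markers called by edgeR, 2 at an unadjusted p under 0.05, 2 called by DESeq2 and 1 by limma-voom. The summed macrophage marker level was 32.7 to 168 CPM in Tg libraries and 59.3 to 184 CPM in WT libraries, and 1 of the 7, Ptprc, was lower in Tg muscle (adjusted p = 0.0422), with 0 of the 7 called by limma-voom or without the 4 libraries rich in adipocyte markers. No marker of either list had a count of 0. The part of these cells in the Fst values was not tested.

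**Figure D2:**
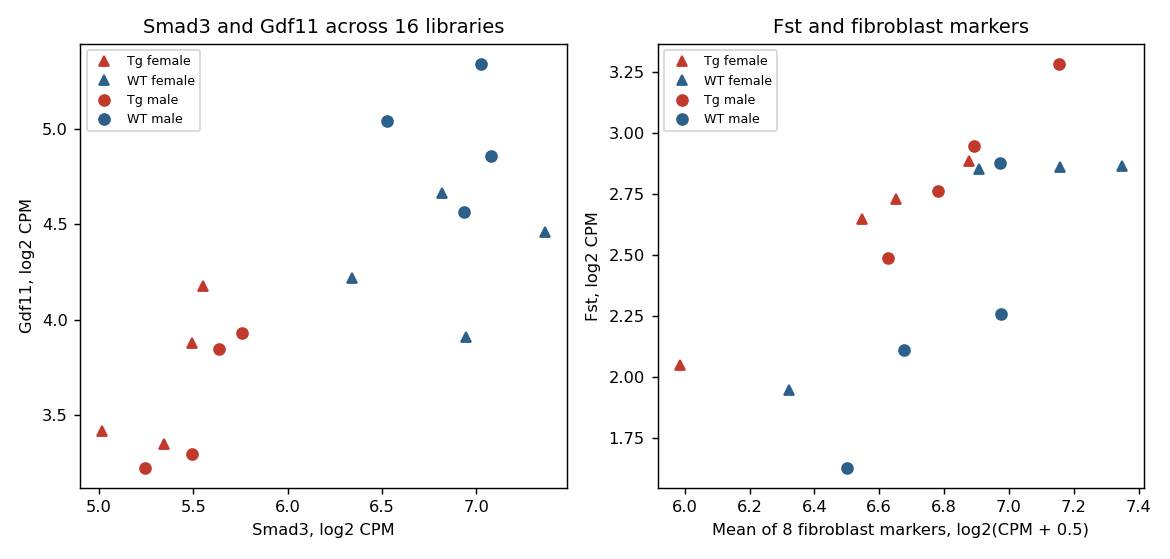
Left, Gdf11 against Smad3 (log2 CPM) and right, Fst (log2 CPM) against the mean of 8 fibroblast markers (log2 of CPM plus 0.5), with 1 point per library (triangles, females; circles, males; red, Tg; blue, WT). On the left the Tg libraries sit apart at low Smad3, and on the right Fst climbs with the fibroblast markers in both genotypes.

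Neither type II receptor passed the test. Acvr2a, on chromosome 2 from 48814109 to 48903269 (plus strand, ENSMUSG00000052155.5), had 46.4, 44.7, 47.4 and 37.8 CPM in Tg females, against 35.2, 31.9, 56.9 and 43.5 CPM in WT females. In males it had 36.8, 36.2, 42.9 and 52.1 CPM in Tg mice, against 41.7, 48.6, 50.2 and 57.8 CPM in WT mice. The genotypes overlapped in both sexes, and the averaged log2 fold change was -0.08 (95% interval -0.33 to 0.16, adjusted p = 0.629). Within groups, its log2 CPM went down as the adipocyte markers went up (r = -0.80, permutation p = 0.00194, adjusted p = 0.0466; rho = -0.83, permutation p = 0.00213, adjusted p = 0.0511; r = -0.77 without Tg female 4 and WT male 1), and the part of fat in the values was not tested. Acvr2a shares 6.54% of its 75-base stretches with Orc4, which lies on the opposite strand, so some of its reads may belong to that gene if the strand was not used.

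Acvr2b, the type II receptor with the higher affinity for myostatin, lies on chromosome 9 from 119402118 to 119434995 (plus strand, ENSMUSG00000061393.14). It had 46.9, 40.9, 47.8 and 32.4 CPM in Tg females, against 35.6, 25.8, 32.8 and 45.8 CPM in WT females. The male values were 45.6, 34.9, 44.1 and 38.5 CPM in Tg mice, against 37.6, 47.1, 42.0 and 36.1 CPM in WT mice. Again the genotypes overlapped, and the averaged log2 fold change was 0.13 (95% interval -0.10 to 0.37, adjusted p = 0.398).

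Smad3, which carries the signal of activated receptors into the nucleus, had the largest change of the 9 genes. The gene lies on chromosome 9 from 63646767 to 63757994 (minus strand, ENSMUSG00000032402.12). It had 45.0, 40.7, 46.8 and 32.4 CPM in Tg females, against 123, 81.1, 165 and 113 CPM in WT females. Male values were 37.8, 54.2, 45.1 and 49.7 CPM in Tg mice, against 123, 92.1, 135 and 130 CPM in WT mice. All 8 Tg libraries lay below all 8 WT libraries, a separation that 2.69% of all tested genes showed in this direction and 7.92% in either. Within a sex, 18% of all tested genes separated in either direction in females and 25.7% in males. Averaged over the sexes Smad3 fell by 63.5% (log2 fold change -1.45, SE 0.14, 95% interval -1.74 to -1.17, edgeR adjusted p = 1.14e-06), and 1.84% of tested genes had a larger absolute change. The log2 fold change was -1.55 in females (SE 0.19, adjusted p = 5.84e-05) and -1.36 in males (SE 0.19, adjusted p = 0.000147), and the difference between the sexes was 0.18 (SE 0.27, adjusted p = 0.902). The spread of Smad3 was narrower in Tg muscle, at 15.6% of the mean, than in WT muscle, at 21.5%, a difference that was not tested. By group it was 28.6% in WT females, 16.1% in WT males, 15.6% in Tg females and 14.9% in Tg males. Within groups, Smad3 gave r = -0.72 with the muscle fibre markers (permutation p = 0.0233, adjusted p = 0.139). With the smooth muscle and pericyte markers r was -0.71 (permutation p = 0.0254, adjusted p = 0.139), and neither passed after adjustment. For the muscle fibre markers rho was -0.61 (permutation p = 0.0286), and r was -0.57 without WT female 3 and WT male 3. For the smooth muscle and pericyte markers rho was -0.43 (permutation p = 0.144), and r was -0.29 without WT female 2 and WT female 3.

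The promoters of Smad3 and Gdf11, which fell, of Igf1r, which rose, and of Mstn, which did not pass the test, are shown to set the genes that moved beside the best known member. RefSeq sequences (build GRCm38.p6) of 250 bases before to 50 bases after the start site were found for 8 of the 9 genes, all except Fst. The windows are chr9:63757945-63758244 on the minus strand for Smad3, chr10:128891669-128891968 on the minus strand for Gdf11, chr7:67952007-67952306 on the plus strand for Igf1r and chr1:53061390-53061689 on the plus strand for Mstn. The RefSeq start sites of Smad3, Gdf11 and Mstn are the first bases of these genes in GENCODE M21, whereas the GENCODE M21 gene given for Igf1r begins 570 bases downstream of the RefSeq start site. Capitals mark matches, on either strand, to 6 motifs: the TATA box TATAAA, the CCAAT box CCAAT, the E-box CANNTG, the CAGA box CAGACA bound by SMAD3 and SMAD4, the FoxO element TGTTTAC and the CEBP-ATF response element TGATGNAA.
Smad3: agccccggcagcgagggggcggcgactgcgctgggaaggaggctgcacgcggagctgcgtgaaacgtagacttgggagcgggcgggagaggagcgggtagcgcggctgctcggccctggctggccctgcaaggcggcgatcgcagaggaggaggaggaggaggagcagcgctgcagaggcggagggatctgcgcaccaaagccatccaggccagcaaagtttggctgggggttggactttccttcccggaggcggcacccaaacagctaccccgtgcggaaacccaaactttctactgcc
Gdf11: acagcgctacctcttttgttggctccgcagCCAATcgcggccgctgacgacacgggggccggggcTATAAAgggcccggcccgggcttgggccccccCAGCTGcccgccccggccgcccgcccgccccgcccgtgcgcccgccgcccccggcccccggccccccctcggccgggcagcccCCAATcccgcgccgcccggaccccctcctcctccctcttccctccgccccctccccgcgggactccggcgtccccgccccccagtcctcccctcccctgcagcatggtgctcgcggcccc
Igf1r: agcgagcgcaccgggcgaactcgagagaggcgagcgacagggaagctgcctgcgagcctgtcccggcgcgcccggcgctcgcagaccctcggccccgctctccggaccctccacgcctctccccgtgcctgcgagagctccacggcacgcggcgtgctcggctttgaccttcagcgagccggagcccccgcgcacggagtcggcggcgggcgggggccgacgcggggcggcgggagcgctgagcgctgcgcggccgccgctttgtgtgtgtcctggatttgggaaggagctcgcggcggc
Mstn: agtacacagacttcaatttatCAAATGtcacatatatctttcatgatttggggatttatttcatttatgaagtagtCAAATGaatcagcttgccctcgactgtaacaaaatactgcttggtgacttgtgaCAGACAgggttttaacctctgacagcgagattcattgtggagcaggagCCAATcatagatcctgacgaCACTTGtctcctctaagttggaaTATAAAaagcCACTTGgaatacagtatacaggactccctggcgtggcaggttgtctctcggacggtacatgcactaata
The Mstn window held a TATA box at -29, a CCAAT box at -72, a CAGA box at -120 and 4 E-boxes, at -229, -174, -52 and -19, counting the first base of the match from the start site. The Gdf11 window held CCAAT boxes at -220 and -70, a TATA box at -185 and an E-box at -153. The Smad3 and Igf1r windows held none of the 6 motifs, and no match in the printed windows overlapped another. Of 32851 promoters of the same length, 13.6% held a TATA box, 37.4% a CCAAT box, 72.3% an E-box, 21% a CAGA box, 3.65% a FoxO element and 3.97% a CEBP-ATF element. G and C made up 67.7% of the Smad3 window, 80.7% of the Gdf11 window, 76% of the Igf1r window and 41.3% of the Mstn window, against a median of 52.7% over all promoters. The matches are letters in a window and were not tested for binding.

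Igf1, the ligand of the second pathway, lies on chromosome 10 from 87858265 to 87937042 (plus strand, ENSMUSG00000020053.18). It had 8.94, 10.6, 10.6 and 14.2 CPM in Tg females, against 18.9, 22.1, 28.2 and 6.23 CPM in WT females. In males it had 17.3, 12.1, 21.4 and 10.9 CPM in Tg mice, against 26.4, 12.8, 12.4 and 10.4 CPM in WT mice. Among females 3 of 4 WT libraries were above every Tg library and WT female 4 was below them all, while males overlapped widely. The averaged log2 fold change was -0.39 (SE 0.28, 95% interval -0.99 to 0.21, adjusted p = 0.323). It was -0.77 (SE 0.40, adjusted p = 0.198) in females. Of 26 alternative settings, the female value was called in the 1 without WT female 4, at -1.06 (adjusted p = 0.0289). In males it was -0.005 (SE 0.39, adjusted p = 0.996), and 0.35 (adjusted p = 0.630) without the 4 libraries rich in adipocyte markers. WT female 1, WT female 2 and WT male 1, 3 of those 4 libraries, had 18.9, 22.1 and 26.4 CPM, and Tg female 4 had 14.2 CPM. The highest value, 28.2 CPM in WT female 3, and the 21.4 CPM of Tg male 3 came from libraries not among them. Within groups, Igf1 and the adipocyte markers gave r = 0.66 (permutation p = 0.0186, adjusted p = 0.139) and rho = 0.56 (permutation p = 0.0570, adjusted p = 0.257), and r = 0.55 without Tg female 4 and WT male 1. Igf1 also gave r = 0.64 with the endothelial markers (permutation p = 0.0461, adjusted p = 0.187). With the macrophage and leukocyte markers r was 0.64 as well (permutation p = 0.0250, adjusted p = 0.139).

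Igf1r, the receptor tyrosine kinase for IGF1, lies on chromosome 7 from 67952827 to 68233668 (plus strand, ENSMUSG00000005533.10). It had 27.1, 33.97, 27.9 and 27.4 CPM in Tg females, against 16.8, 19.1, 22.3 and 21.6 CPM in WT females. Tg males had 26.1, 24.6, 26.1 and 28.3 CPM, against 14.5, 20.9, 19.3 and 20.7 CPM in WT males. All 8 Tg libraries lay above all 8 WT libraries, which 5.23% of all tested genes showed in this direction. Igf1r rose 1.43-fold averaged over the sexes (log2 fold change 0.51, SE 0.08, 95% interval 0.34 to 0.69, edgeR adjusted p = 0.000218), and 14.4% of tested genes had a larger absolute change. The log2 fold change was 0.55 in females (SE 0.12, adjusted p = 0.00470) and 0.48 in males (SE 0.12, adjusted p = 0.00981). Within groups, Igf1r and the adipocyte markers gave r = -0.78 (permutation p = 0.00497, adjusted p = 0.0895) and rho = -0.67 (permutation p = 0.0180, adjusted p = 0.201), and r = -0.69 without Tg female 4 and WT male 1, and neither passed after adjustment. Without the 4 libraries rich in these markers the log2 fold change of Igf1r was 0.38 (adjusted p = 0.00141), and with the adipocyte marker level as a covariate it was 0.50 (adjusted p = 1.12e-05).

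Igfbp5, whose product binds IGF1 outside the cell, lies on chromosome 1 from 72857932 to 72874884 (minus strand, ENSMUSG00000026185.8). It had 732.4, 882, 809 and 688 CPM in Tg females, against 888, 759, 786 and 780 CPM in WT females. Among males it was 819, 886, 1183 and 968 CPM in Tg mice, against 775, 887, 951 and 810 CPM in WT mice. The averaged log2 fold change was 0.06 (SE 0.08, 95% interval -0.11 to 0.23, adjusted p = 0.596), the narrowest interval of the 6 genes that were not called. The male minus female log2 difference was 0.31 in Tg mice (SE 0.11, adjusted p = 0.385), which was not called.

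**Figure D3:**
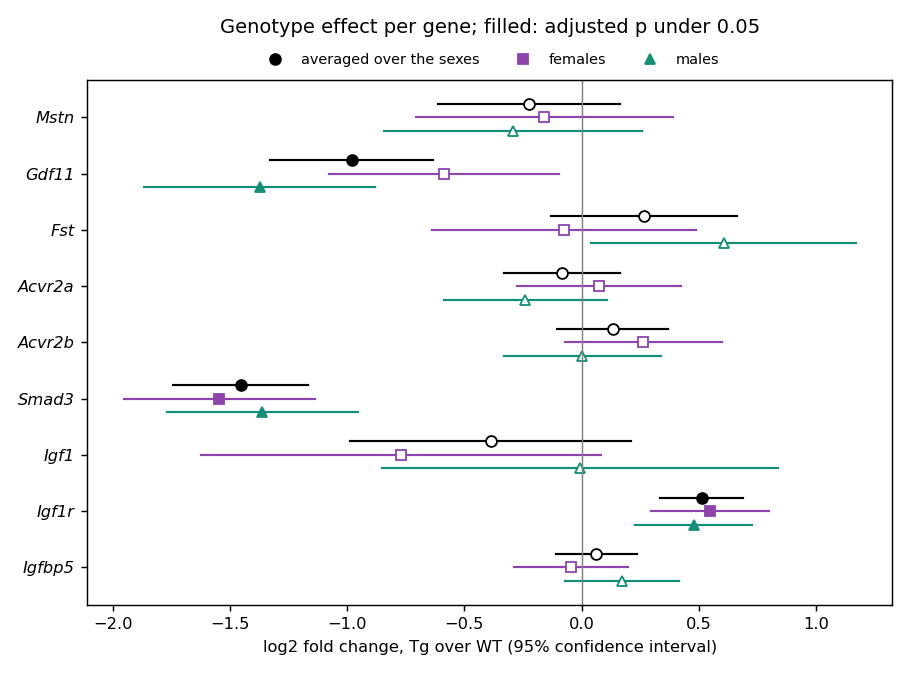
Log2 fold change of Tg over WT muscle for each gene with its 95% interval, averaged over the sexes (circles), in females (squares) and in males (triangles), with filled symbols for an adjusted p under 0.05. Smad3 and Igf1r are called in each sex, Gdf11 in males and in the average, and the intervals of the other 6 averaged effects include 0.

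Across the 16 libraries, the 3 genes whose log2 CPM resembled each of the 9 most were found by Pearson r among 10782 genes, as a description without a test. Smad3 was closest to Akirin1 (r = 0.96), Ankrd44 (0.96) and Fermt2 (0.96), and Gdf11 to Cog6 (0.94), Camk2b (0.93) and Ankrd40 (0.92). Igf1r was closest to Mettl21a (0.94), Ubr2 (0.93) and Tec (0.92). Smad3, Gdf11 and Igf1r differ by genotype, so their r also carries that difference, and within groups it was 0.66 to 0.81 for the partners of Smad3, 0.64 to 0.80 for those of Gdf11 and 0.69 to 0.80 for those of Igf1r. Fst was closest to Col6a3 (0.88), Loxl1 (0.84) and Col4a5 (0.83). Col6a3 and Col4a5 encode collagen chains, and Loxl1 encodes an enzyme that crosslinks matrix proteins. Igf1 was closest to Prkci (0.91), Dock11 (0.91) and Scn7a (0.91). Mstn was closest to Cnih1 (0.90), St7l (0.89) and C2cd2 (0.89). Acvr2a was closest to Eya4 (0.88), H1f0 (0.88) and Mospd1 (0.87), Acvr2b to Cwc27 (0.85), Hspb3 (0.84) and Ecd (0.84), and Igfbp5 to Capn6 (0.78), Cacna1c (0.78) and Pcdh12 (0.74).

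The rest of the pathway was read through 8 gene lists, with 108 tested genes, of which 16 (14.8%) rose and 24 (22.2%) fell in Tg muscle, against 17.2% higher and 13.3% lower over all tested genes. Among 14 tested ligands and their activating proteins 1 was called, Tgfb2, the TGF-beta 2 ligand, at 36.3 ± 7.61 CPM in Tg muscle and 20.6 ± 4.27 CPM in WT muscle (SD, n = 8 each; 1.77-fold, adjusted p = 0.000182). Inhba, the activin A subunit, named after its value was seen, was at 0.80 ± 0.46 CPM in Tg muscle and 0.84 ± 0.33 CPM in WT muscle (log2 fold change -0.04, adjusted p = 0.953). Inhbb, another activin subunit named after its value was seen, had 1.41 ± 0.55 CPM in Tg and 2.83 ± 2.32 CPM in WT muscle. The log2 fold change of Inhbb was -1.01 (SE 0.43, adjusted p = 0.0936), which was not called. On the ligand list 1 gene was called lower with DESeq2, with the adipocyte covariate and without WT male 2. With 1 surrogate variable 2 ligand genes were called higher. Of 7 tested extracellular antagonists 2 were higher and 1 lower. Nog, whose product noggin is known for blocking bone morphogenetic proteins (BMPs), had 18.02 ± 3.37 CPM in Tg muscle and 2.29 ± 0.37 CPM in WT muscle (7.84-fold, adjusted p = 2.32e-11). Wfikkn2, which encodes an inhibitor of myostatin and GDF11, had 22.6 ± 2.71 CPM in Tg muscle and 15.9 ± 2.30 CPM in WT muscle (1.42-fold, adjusted p = 0.000616). Nbl1, another BMP antagonist, was lower (log2 fold change -0.47, adjusted p = 0.0430), and its call was lost in 12 of 26 alternative settings. One of these left out WT female 2, its highest library (-0.36, adjusted p = 0.0837), and the adjusted p over the settings was 0.0152 to 0.0909.

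Of the 10 tested type I and other type II receptors, 0 were higher and 3 lower, with 1 higher without Tg male 2 and 4 lower without WT female 2 or without the 4 libraries rich in adipocyte markers. They were, with all libraries, Acvr1 (log2 fold change -0.42, adjusted p = 0.000900) and Bmpr2 (-0.38, adjusted p = 0.00194), both known as BMP receptors, and the coreceptor Tgfbr3 (-0.50, adjusted p = 0.00418). Acvr1b and Tgfbr1, the type I receptors of activin and of TGF-beta that also serve myostatin, named after their values were seen, had log2 fold changes of -0.16 (adjusted p = 0.451) and -0.17 (adjusted p = 0.174). Of the 13 tested Smads and their regulators, 1 was higher and 4 were lower. Smurf2, a ubiquitin ligase of Smads and their receptors, had 28.5 ± 1.37 CPM in Tg muscle and 41.8 ± 2.48 CPM in WT muscle (log2 fold change -0.55, adjusted p = 3.85e-07). Smad2, the partner of Smad3 in this pathway, had 14.9 ± 0.88 CPM in Tg muscle and 17.98 ± 1.67 CPM in WT muscle (-0.27, SE 0.06, adjusted p = 0.00387). Trim33 (-0.35, adjusted p = 0.00130), a ubiquitin ligase that acts on Smad complexes, was also lower, as was Skil (-0.31, adjusted p = 0.0411), a corepressor named here after its value was seen. Tgif1, another corepressor, was higher (0.41, adjusted p = 0.0254), a call lost without the 4 libraries rich in adipocyte markers (0.37, adjusted p = 0.0898) and without WT male 1 (0.37, adjusted p = 0.0549), Tg female 2 (0.34, adjusted p = 0.0588) or Tg male 4 (0.38, adjusted p = 0.0528).

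Among 12 tested target genes of TGF-beta and Smad3, 1 rose and 2 fell. Cdkn1a, the cell cycle inhibitor p21, had 87.7 ± 15.9 CPM in Tg muscle and 22.6 ± 10.7 CPM in WT muscle (SD, n = 8 each; 4.16-fold, adjusted p = 1.60e-09). Pmepa1, an inhibitor of TGF-beta signalling that the pathway itself induces, had 11.4 ± 1.56 CPM in Tg muscle and 24.3 ± 6.24 CPM in WT muscle (log2 fold change -1.10, adjusted p = 3.02e-05). Several of the 12 are matrix genes, and 2, Col1a1 and Col3a1, are also fibroblast markers. Of 6 tested ubiquitin ligases under FoxO or Smad control 0 were higher and 3 lower. Of these ligases 1 was called higher without Tg male 2, WT female 3 or Tg female 4, and 4 were called lower without the 4 libraries rich in adipocyte markers and in 3 other settings, which were 1 surrogate variable, the adipocyte covariate and leaving out Tg male 2. Fbxo32, the muscle ligase atrogin-1, had 472 ± 75.8 CPM in Tg muscle and 927 ± 272 CPM in WT muscle (-0.98, adjusted p = 0.000213), and its highest Tg library, at 585 CPM, lay below its lowest WT library, at 644 CPM. Over all libraries 2.69% of all tested genes separated in this direction. Trim63, the muscle ligase MuRF1, had 313 ± 86.5 CPM in Tg muscle and 615 ± 201 CPM in WT muscle (-0.95, adjusted p = 0.000393). Mdm2, the ligase of p53, was lower too (-0.25, adjusted p = 0.0107).

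In the IGF family 3 of 12 tested genes were higher and 1 lower. Igf2, the fetal growth factor that also binds the IGF1 receptor, had 38.0 ± 11.3 CPM in Tg muscle and 14.2 ± 3.82 CPM in WT muscle (2.66-fold, adjusted p = 1.84e-07). Its exons overlap those of Gm49394 and the antisense gene Igf2os. Insr, the insulin receptor, had 134 ± 14.9 CPM in Tg muscle and 113 ± 8.38 CPM in WT muscle (1.19-fold, adjusted p = 0.00749), and lost its call without the 4 libraries rich in adipocyte markers (adjusted p = 0.0716). Stc2, whose product stanniocalcin 2 inhibits the protease PAPP-A, had 5.99 ± 1.28 CPM in Tg muscle and 4.02 ± 4.47 CPM in WT muscle (2.11-fold, adjusted p = 0.00870). Its log2 fold change was -0.09 in females, where WT female 4 alone had 13.95 CPM, and 2.25 in males (interaction adjusted p = 0.211), and its call was lost in a model with additive genotype and sex (adjusted p = 0.0982). Igfbp3, the main IGF carrier of blood, was lower (log2 fold change -0.58, adjusted p = 0.00545).

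Downstream of the receptors, 8 of 34 tested genes were higher and 10 lower. Trib3, a pseudokinase reported to bind and inhibit AKT, had 75.2 ± 15.3 CPM in Tg muscle and 1.404 ± 0.62 CPM in WT muscle (53.2-fold, adjusted p = 1.57e-10). Grb10, an adaptor that inhibits the insulin and IGF1 receptors, had 133 ± 29.3 CPM in Tg muscle and 60.1 ± 18.9 CPM in WT muscle (2.26-fold, adjusted p = 7.93e-07). Its relative Grb14 went the other way, with 5.203 ± 1.13 CPM in Tg muscle and 14.98 ± 3.94 CPM in WT muscle (log2 fold change -1.53, adjusted p = 7.25e-06). Akt1 had 69.4 ± 6.53 CPM in Tg muscle and 47.3 ± 4.15 CPM in WT muscle (1.46-fold, adjusted p = 2.04e-06). Named after their values were seen, Irs2, an adaptor of the receptors, was higher (0.64 on the log2 scale, adjusted p = 0.000211), and Akt2, another AKT kinase, was lower (-0.36, adjusted p = 0.00130). Without the 4 libraries rich in adipocyte markers this list had 6 genes higher and 11 lower, and over the settings 20.6% to 34.7% of all tested genes were called. The share of called genes was 52.9% on this list, 50% among the ubiquitin ligases, 42.9% among the antagonists, 38.5% among the Smads and their regulators, 33.3% in the IGF family, 30% among the receptors, 25% among the target genes and 7.14% among the ligands, against 30.4% over all tested genes. The lists were chosen with earlier results of these data known, so these shares are a description and no excess was tested.

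**Figure D4:**
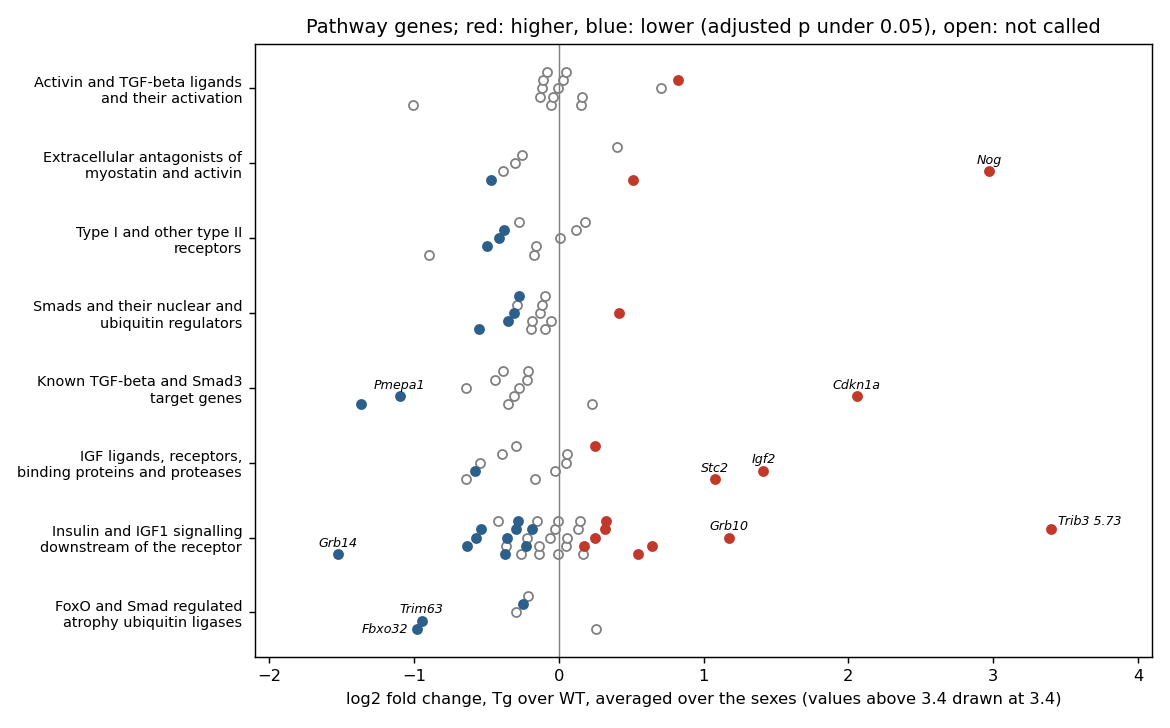
Log2 fold change of Tg over WT muscle, averaged over the sexes, for every tested gene of the 8 pathway lists (red, higher; blue, lower; open, not called), with each list on a row of its own. Trib3, at 5.73, is drawn at the edge of the axis, and the called genes of the rows of type I and other type II receptors and of ubiquitin ligases lie to the left of 0.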

How the data were processed

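Polyadenylated RNA of 16 quadriceps muscles was sequenced as stranded paired-end libraries, per the labels' protocols. Per the submitters' processing notes, the tools were TopHat2, Bowtie2, cutadapt 1.2.1 and bcl2fastq, and the build was mm10. The sources used here do not give the counting program, its annotation or its use of strand. The values deposited by the authors were taken as estimated counts (expected counts), since 95.02% of nonzero values are whole and totals differ between libraries. They were rounded, which moved none by more than 0.5.

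Tests used edgeR 4.0.16 in R 4.3.3 with filterByExpr (minimum count 10), TMM scaling (factors 0.887 to 1.10), 1 mean per group and a robust quasi-likelihood F test over 13666 genes, adjusted by Benjamini-Hochberg and called at 0.05. Tests are two-sided, and the biological coefficient of variation was 0.201. CPM values use the scaled totals. Alternatives used DESeq2 1.42.0, limma 3.58.1, sva 3.50.0, other filters and scalings, and leaving out libraries. The scripts were tested on simulated data.

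The 9 genes and all lists were chosen with earlier results of these data known. Of each pathway list, up to 4 called genes with the smallest adjusted p are named, and some list members are counted but not reported here by name. No label gives litters or batches, so p-values measure the spread between these mice. Among 24 pairs of libraries within a group, log2 CPM correlated at 0.955 to 0.992 across genes, and the median chi-square of a gene's 2 counts was 1.22 to 7.37, so none was taken as a duplicate. Gene positions are from GENCODE M21, and promoters from RefSeq.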

Additional observations from a re-analysis of the deposited data

Results flagged for a closer look

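A library stood far from the other 3 of its group in 6 of 132 groups of 4 examined, which covered the 9 genes and the named pathway genes. Chance alone flags about 1 in 20 groups, so this number is near what chance gives. Among the 9 genes, Igf1r reached 33.97 CPM in Tg female 2, and the other Tg females had 27.1 to 27.9 CPM. The lowest Fst value among WT females, 3.86 CPM in WT female 4, lay under 7.21 to 7.29 CPM in the others, and Igf1 reached 26.4 CPM in WT male 1, above the 10.4 to 12.8 CPM of the other WT males. Among the pathway genes, Akt1 was highest in Tg male 1 at 78.1 CPM. Nbl1 was highest in WT female 2 at 35.6 CPM, and Trim33 was highest in WT female 3 at 24.5 CPM. The averaged calls of Igf1r, Akt1 and Trim33 held without these libraries.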

How the results depend on the processing

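The averaged calls of Smad3, Gdf11 and Igf1r held in all 26 alternative settings, at log2 fold changes of -1.53 to -1.36, -1.13 to -0.91 and 0.38 to 0.54. The pathway genes called higher numbered 13 and those called lower 28 without the 4 adipocyte-rich libraries, a setting chosen after seeing the data. Over the settings 20.6% to 34.7% of all tested genes were called in the averaged comparison, against 30.4% in the main fit. Every sign change below concerned a log2 difference that was called neither before nor after the change, and the cause was not tested. No paired analysis was possible because the labels number no mouse as a replicate, and the numbers used in the text only name the mice.
Smad3 for sex in WT mice was 0.012 with RLE scaling, 0.0057 with no filter, 0.013 with DESeq2 and 0.024 with limma-voom. Acvr2b in males was -0.029 with RLE scaling and -0.030 with DESeq2, and Igf1 in males 0.073 with limma-voom. With 1 surrogate variable, Fst in females was 0.095, Acvr2a in females -0.086, the interaction 0.015 for Mstn and 0.085 for Igf1r, Igf1 for sex in WT mice 0.025 and Acvr2b for sex in Tg mice 0.029. With the adipocyte covariate, Fst in females was 0.017, Acvr2a in females -0.031, the Igf1r interaction 0.053 and Igf1 for sex in WT mice 0.017. Without the 4 adipocyte-rich libraries, Fst in females was 0.025, Acvr2a in females -0.12, Igfbp5 in females 0.040, Acvr2b in males -0.068, Igf1 in males 0.35 and the Mstn interaction 0.17.
Leaving out 1 library gave -0.14 to 0.0095 for Acvr2a averaged over the sexes. In females it gave -0.035 to 0.26 for Acvr2a, -0.11 to 0.0089 for Igfbp5, -0.25 to 0.076 for Fst and -0.35 to 0.044 for Mstn, and in males -0.056 to 0.080 for Acvr2b and -0.20 to 0.36 for Igf1. For the interaction it gave -0.20 to 0.012 for Igf1r, -0.34 to 0.062 for Mstn and -0.0052 to 0.33 for Smad3. For sex in WT mice it gave -0.15 to 0.18 for Smad3 and -0.15 to 0.052 for Igf1r, and for sex in Tg mice -0.15 to 0.025 for Acvr2b and -0.27 to 0.035 for Gdf11.
Over all tested genes, 0.00732% were called for the interaction, against 0.0419% with no filter, 0.638% with DESeq2, 0.11% with 1 surrogate variable, 0.11% with the adipocyte covariate, 0.0506% without the 4 libraries and 0 to 0.166% on leaving out 1 library. For sex in WT mice 3.67% were called, against 2.34% with no filter and 2.11% to 5.25% on leaving out 1 library. For sex in Tg mice 0.527% were called, against 1.1% with DESeq2, 0.871% with 1 surrogate variable, 1.14% with the adipocyte covariate, 1.08% without the 4 libraries and 0.312% to 0.625% on leaving out 1 library. In females 17.7% were called, against 11.2% with no filter and 10.7% when females were fitted alone, and in males 18.2%, against 11.6% with no filter. Among the 9 genes, those called lower in females numbered 2 with 1 surrogate variable, 2 with the adipocyte covariate and 1 to 2 on leaving out 1 library. Those called higher in males numbered 1 to 2 on leaving out 1 library, and those called lower for sex in WT mice 1 without the 4 libraries.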
